A study of Xenopus laevis with 8 samples.

Results

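The anterior neural plate factors described here were 9 genes, each the product of a long (.L) or a short (.S) chromosome copy of the tetraploid *Xenopus laevis* genome: rax.L, rax.S, pax6.L, otx2.L, otx2.S, lhx2.L, nkx2-1.L, nr2e1.S and en2.L. They were chosen by name as transcription factors of the forebrain, eye field and midbrain, with earlier results of these data known. Every probe set (a group of short probes against one transcript) listed with one of them alone was taken, which gave 14 probe sets of the 32635 on the array. All 9 genes were among the 8219 that passed a filter on level, which asked for a mean of at least 4 in 1 group or more. Nr2e1.S and en2.L passed it only through the uninjected sides of double morphants and so had to stand high there, and their tests against that group are given as descriptions. The data were 8 Affymetrix arrays of neurula RNA in 4 groups, with 2 arrays in each group. Control morphants had received a control morpholino on one side, and double morphants the Suv4-20h morpholinos (suv420 in the labels) against xSuv4-20h1 and xSuv4-20h2. These block translation of the enzymes that add the second and the third methyl group to lysine 20 of histone H4. From each kind of morphant the injected and the uninjected sides were measured separately. The labels give 40 ng of morpholino in total and 2 neighbouring blastomeres, whereas the supplementary methods give a higher dose and a single blastomere. No strain, sex or genetic alteration is given. Each array held RNA pooled from dissected sides of several embryos, and the uninjected sides came from the same embryos as the injected ones. The replicate numbers stand for 2 independent experiments.

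At the neurula stage the neural plate is already divided from front to back by transcription factors. Otx2, a homeodomain protein, marks the forebrain and midbrain and is needed for their formation. Within the front of the plate, rax, pax6, lhx2 and nr2e1 (the vertebrate tailless gene, a nuclear receptor that represses transcription) belong to the network of the eye field, from which the retina grows. Nkx2-1 marks the ventral forebrain, including the later hypothalamus, and en2 the region of the boundary between midbrain and hindbrain. The comparison of the sides asked whether these regional genes changed when the Suv4-20h enzymes were depleted.

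The tissue on the arrays was a side of a whole embryo, and all the germ layers were represented in every group. Group means were 11.08 to 11.56 for sox2.L of the neural plate, 14.81 to 14.87 for krt70.S of the epidermis, 11.94 to 13.31 for actc1.L of muscle and 10.01 to 10.34 for sox17a.S of the endoderm, all on the log2 scale. A lower value can therefore stand for fewer cells of a region or for less RNA per cell, which cannot be told apart here. The median of the arrays lay between 5.09 and 5.19, and 31.7% of all values lay under 2.5, where GCRMA values bunch near the lowest value of 2.14 and have little order. Transcripts of the targeted genes do not check the knockdown, since the morpholinos act on translation. In double morphants the injected minus the uninjected side was 0.042 (SE 0.38) for kmt5b.L and -0.31 (SE 0.19) for kmt5b.S, the gene of Suv4-20h1.

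In double morphants, the ventral forebrain gene nkx2-1.L, the midbrain-hindbrain gene en2.L and the forebrain and eye field genes nr2e1.S and lhx2.L fell on the injected side. The differences were 6.87-fold for nkx2-1.L and 3.19-fold for lhx2.L. They were at least 4.90-fold for en2.L and 3.17-fold for nr2e1.S, whose injected sides lay at the floor of the arrays. En2.L and nr2e1.S had passed the filter on level only through their high uninjected sides here, so their falls are given as descriptions. All 4 calls were lost when the test statistics were first turned into z values, and those of nkx2-1.L, en2.L and lhx2.L also with the experiment as a block. In control morphants rax.L, nkx2-1.L, lhx2.L, pax6.L and otx2.S were called lower on the injected side as well, by 2.79-fold for rax.L and 2.70-fold for nkx2-1.L. These calls rest on the local fdr, and the adjusted p of limma was 0.740 or above for each of them. Those of lhx2.L, pax6.L and otx2.S were lost with the experiment as a block. The difference between the effects in double and control morphants passed the threshold for nr2e1.S among the 9 genes. The fitted value was -1.73 on the log2 scale (SE 0.28), with a local fdr of 9.34e-07 and an adjusted p of 0.574. Both sides of control morphants lay at the floor for this gene, so its effect there could not be measured and the value is no measure of how far the effects differ. Here and below a gene was called when its local fdr (the estimated chance that a gene with this test statistic is unchanged) was under 0.2, the threshold of the study, in a limma fit over all genes tested. The adjusted p of the same fit (Benjamini-Hochberg over all genes) is given beside the calls because it gave a different picture. It was above 0.05 for every gene in both comparisons of sides. Nothing in the labels shows more than 2 independent experiments, so the tests rest on the spread between 2 arrays per group.

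**Figure D1:**
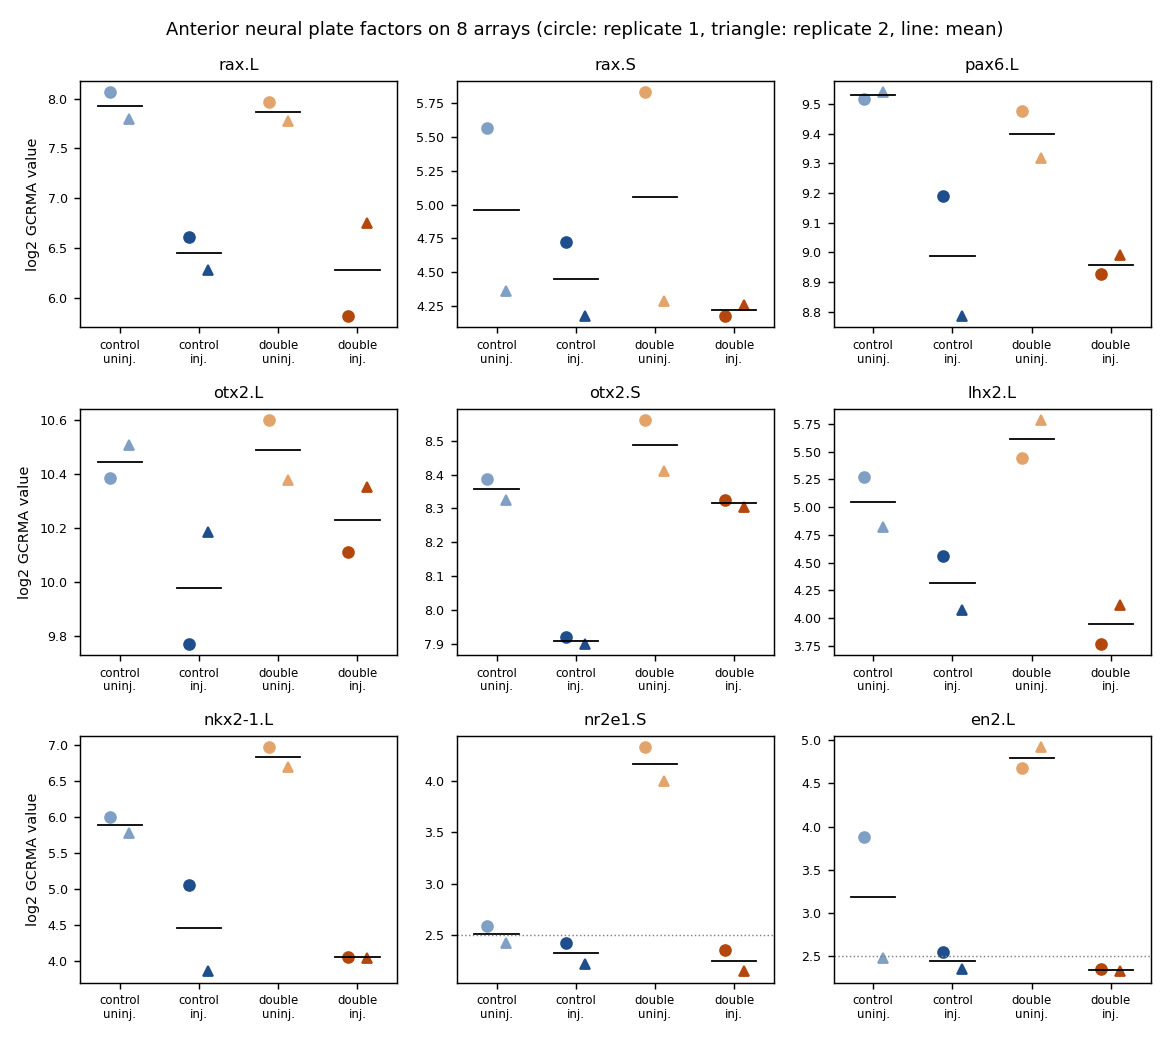
Log2 GCRMA value (y axis) of the 9 genes on the 8 arrays, by group (x axis: uninjected and injected sides of control and of double morphants), with a circle for replicate 1, a triangle for replicate 2 and a line for the mean of the group. In double morphants both injected arrays lie under both uninjected arrays for 9 of 9 genes, against 24.0% of all genes tested. Nr2e1.S and en2.L had to stand high on those uninjected sides to pass the filter, and rax.S is separated narrowly (4.26 against 4.28). Both uninjected arrays of double morphants stand above both of control morphants for nr2e1.S, en2.L, nkx2-1.L, lhx2.L and otx2.S, and under them for pax6.L. The share of all genes separated in this way was not computed, so nothing is read from this separation of the uninjected sides.

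Rax, the retinal homeobox gene, is among the first genes of the eye field and is required for eye formation. Rax.L had values of 8.06 and 7.79 on the uninjected sides of control morphants (replicate 1, then replicate 2) and 6.61 and 6.28 on their injected sides. In double morphants the values were 7.96 and 7.77 on the uninjected and 5.81 and 6.75 on the injected sides. The injected sides of both kinds of morphant were low, the uninjected sides were high, and the sides did not overlap in either. The difference was -1.48 (SE 0.33) in control morphants, with a local fdr of 9.42e-05 and an adjusted p of 0.740, so rax.L fell there. In double morphants it was -1.58 (SE 0.33), with a local fdr of 0.330 and an adjusted p of 0.102, which was not a call. Without the second injected replicate of double morphants, the higher of the pair, it was -2.05 and was called. The near-equal differences met different local fdr values because the estimated null was wider in double morphants, with an SD of 1.72 against 0.87 in control morphants. The interval of the difference between them ran from -1.25 to 1.05, and so did not separate the effects. In a fit over all annotated probe sets with no filter on level, the same difference of -1.58 in double morphants was called. Its local fdr there was 0.0497 and its adjusted p 0.104, so the call of rax.L depended on the fit.

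The other probe set of rax.L had means of 8.48 and 7.29 on the uninjected and injected sides of control morphants and differed by -0.95 (SE 0.39) between the sides of double morphants. For rax.S, the probe set with the highest variance gave 5.57 and 4.36 on the uninjected and 4.73 and 4.18 on the injected sides of control morphants. In double morphants it gave 5.83 and 4.28 on the uninjected and 4.17 and 4.26 on the injected sides. The spread between replicates on the uninjected sides was larger than the difference between the sides, and only the first replicate stood apart. The differences of -0.84 (SE 0.60) in double and -0.51 (SE 0.60) in control morphants were not called.

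A further probe set of rax.S gave 7.37 and 7.79 on the uninjected and 6.85 and 6.64 on the injected sides of control morphants. In double morphants its values were 7.77 and 8.02 on the uninjected and 6.13 and 7.05 on the injected sides. On the uninjected sides the replicates of this probe set lay closer together, on the injected sides of double morphants they lay further apart, and the sides did not overlap. In a fit over all annotated probe sets its differences of -1.30 (SE 0.35) in double and -0.84 (SE 0.35) in control morphants were called, at local fdr values of 0.178 and 0.104. The adjusted p in double morphants was 0.144. Thus whether rax.S was called depended on the probe set, whereas all 5 probe sets of the rax copies lay lower on the injected side in both kinds of morphant. The sequence identity of the copies was not examined, and probes of one copy may take up transcripts of the other.

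Pax6, a paired-box homeodomain factor needed for eye development, changed by less. Pax6.L had values of 9.52 and 9.54 on the uninjected and 9.19 and 8.78 on the injected sides of control morphants. In double morphants they were 9.48 and 9.32 on the uninjected and 8.93 and 8.99 on the injected sides. The sides did not overlap in either kind of morphant, and the injected sides of both were at a like level. Pax6.L fell by 0.54 on the log2 scale (SE 0.19) in control morphants, with a local fdr of 0.0537 and an adjusted p of 0.959. The call was lost with the experiment or the paired sides as a block and without 3 of the 4 control arrays in turn. In double morphants the difference of -0.44 (SE 0.19) was not called, with a local fdr of 0.957 and an adjusted p of 0.256. The difference between the effects was 0.10, with an interval from -0.55 to 0.76. Another probe set of pax6.L differed by -0.21 (SE 0.16) between the sides of double morphants, and the third lay at 2.14 on every array, so that it carried no information.

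Lhx2 is a LIM-homeodomain factor without which the optic vesicle of the mouse does not form an optic cup. Lhx2.L had values of 5.27 and 4.82 on the uninjected and 4.56 and 4.07 on the injected sides of control morphants. In double morphants they were 5.44 and 5.79 on the uninjected and 3.77 and 4.12 on the injected sides. Injected sides were low in both kinds of morphant, and the uninjected sides of double morphants were the high ones. Lhx2.L fell by 1.67 (SE 0.27) in double morphants, with a local fdr of 0.0689 and an adjusted p of 0.0846. The call was lost with the experiment as a block (0.829) and without the first injected (0.761) or the second uninjected (0.333) replicate. It fell by 0.73 (SE 0.27) in control morphants, with a local fdr of 0.0880, and this call was lost without any one of the 4 control arrays and with the experiment as a block. The difference between these effects was -0.94, with an interval from -1.89 to 0.0085, and was not called.

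Nkx2-1 encodes a homeodomain factor that patterns the ventral forebrain and is known in mouse for the hypothalamus, lung and thyroid. Nkx2-1.L had values of 6.01 and 5.78 on the uninjected and 5.06 and 3.86 on the injected sides of control morphants. In double morphants they were 6.97 and 6.70 on the uninjected and 4.06 and 4.05 on the injected sides. The sides did not overlap in either kind of morphant, and the injected sides of control morphants lay further apart than those of double morphants. Nkx2-1.L fell by 2.78 (SE 0.39) in double morphants, with a local fdr of 0.0115 and an adjusted p of 0.0765. The local fdr rose above the threshold with the experiment (0.274) or the paired sides (0.221) as a block and without the first injected replicate (0.470). In control morphants it fell by 1.43 (SE 0.39), with a local fdr of 0.00297, a call lost without the second uninjected replicate (0.375). The difference between the effects was -1.35, with an interval from -2.68 to -0.017, and its local fdr did not pass.

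Nr2e1 keeps neural progenitors of the forebrain and retina proliferating in the mouse. Nr2e1.S had values of 2.59 and 2.42 on the uninjected and 2.42 and 2.22 on the injected sides of control morphants, all near the lowest values of the arrays. In double morphants it was 4.33 and 4.0 on the uninjected and 2.35 and 2.14 on the injected sides. Only the uninjected sides of double morphants carried a signal above that floor. Nr2e1.S fell by 1.92 (SE 0.19) in double morphants, with a local fdr of 3.96e-05 and an adjusted p of 0.0765. The filter on level had selected this gene by that difference. In a fit over all annotated probe sets with no filter on level the adjusted p was 0.0358. Both fits shared a single estimate of the spread over the groups. The SE and adjusted p of nr2e1.S therefore rest mostly on arrays at or near the floor, where values vary little. Because the injected sides were at the floor, this is a bound: with values under 2.5 set to 2.5, the uninjected sides were at least 3.17-fold higher. The difference in control morphants was -0.19 (SE 0.19) and was not called, with both sides at the floor, where a lower level could not have been seen.

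En2 is a homeodomain factor of the midbrain-hindbrain boundary. En2.L had values of 3.88 and 2.48 on the uninjected and 2.55 and 2.36 on the injected sides of control morphants. In double morphants they were 4.67 and 4.91 on the uninjected and 2.35 and 2.33 on the injected sides. The injected sides of double morphants were at the floor, and in control morphants the first uninjected replicate alone stood above it. En2.L fell by 2.45 (SE 0.43) in double morphants, or at least 4.90-fold with the floor, with a local fdr of 0.121 and an adjusted p of 0.0887. This call was lost without any one of the 4 double morphant arrays, at local fdr values of 0.265 to 0.782. The filter had selected en2.L by its high uninjected sides, and with no filter its adjusted p was 0.0868. In control morphants the difference of -0.73 was not called. The difference between the effects was -1.73, with an interval from -3.22 to -0.23 and a local fdr of 0.237, above the threshold.

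Otx2, the factor with the widest anterior domain of these genes, had the smallest differences of the 9 genes in double morphants. Otx2.L had values of 10.38 and 10.51 on the uninjected and 9.77 and 10.19 on the injected sides of control morphants. In double morphants they were 10.60 and 10.38 on the uninjected and 10.11 and 10.35 on the injected sides. The sides did not overlap in either kind of morphant, but in the second replicate of double morphants the injected array lay lower by a difference of -0.025. Otx2.S had values of 8.39 and 8.33 on the uninjected and 7.92 and 7.90 on the injected sides of control morphants. Its values in double morphants were 8.56 and 8.41 on the uninjected and 8.33 and 8.3 on the injected sides. Otx2.S fell by 0.45 (SE 0.15) in control morphants, with a local fdr of 0.0346 and an adjusted p of 0.959. This call was lost without any one of the 4 control arrays and with either block, the experiment or the paired sides. Otx2.L differed by -0.47 (SE 0.21), with a local fdr of 0.224. In double morphants the differences of -0.26 (SE 0.21) for otx2.L and -0.17 (SE 0.15) for otx2.S were not called.

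Counted together, 4 of the 9 genes were called lower and none higher in double morphants, against 0.998% of all genes called lower and 0.633% called higher there. The 9 genes had been chosen with earlier results of these data known. Shares of all genes, here and below, are therefore given for scale, and no excess is read from them. Of the 7 genes that passed the filter through other groups as well, 2 were called lower, nkx2-1.L and lhx2.L. In control morphants 5 of 9 were called lower and none higher, against 3.11% and 0.900% of all genes, and all 5 were among those 7 genes. The median difference of the 7 genes was -0.84 in double morphants, where that of all genes was 0.035, and -0.54 in control morphants, where that of all genes was 0.043. Both injected arrays lay under both uninjected arrays for 7 of these 7 genes in double morphants, against 24.0% of all genes, and for 6 of them in control morphants, against 12.9%. In control morphants the sides of rax.S overlapped.

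By adjusted p the comparison of sides in control morphants was the weaker. The smallest adjusted p of any gene was 0.405 in control and 0.0765 in double morphants, so that all calls in control morphants rest on the local fdr. There the estimated null was narrower than the theoretical one (SD 0.87), which makes calls easier to reach, and with the theoretical null 2 of the 9 genes kept their calls, rax.L and nkx2-1.L.

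Since the sides came from the same embryos and the replicate numbers from 2 experiments, fits with these as a block were also made. The threshold of 0.05 on the adjusted p of these fits was added after the values had been seen. With the experiment as a block, 5 of 9 genes passed it in double morphants, all lower, against 10.3% of all genes lower and 12.3% higher. Of the 7 genes that did not depend on the uninjected sides of double morphants for the filter, 3 passed. The 5 genes were nr2e1.S and nkx2-1.L (0.0168 each), lhx2.L and en2.L (0.0209 each) and rax.L (0.0299), whereas pax6.L had 0.0919. With each pair of sides as a block the adjusted p of these 5 genes ran from 0.0173 to 0.0275. The local fdr moved the other way. In double morphants en2.L and nkx2-1.L lost their calls with either block (local fdr 0.826 and 0.274 with the experiment, 0.638 and 0.221 with paired sides), and lhx2.L lost it with the experiment as a block (0.829). In control morphants pax6.L and otx2.S lost their calls with either block and lhx2.L with the experiment, and no gene of the array passed by adjusted p.

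**Figure D2:**
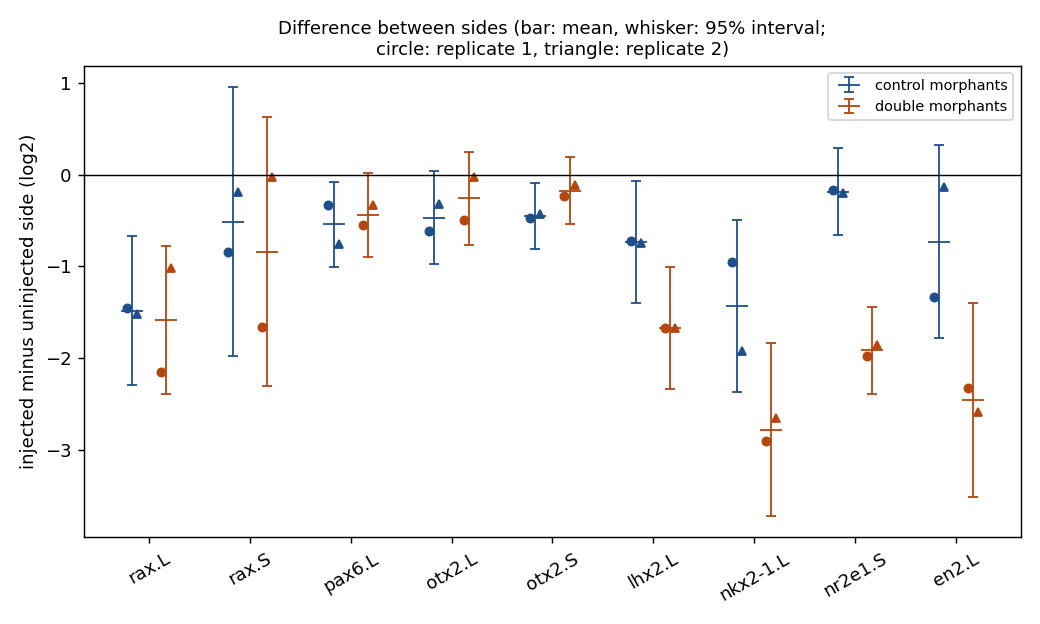
Injected minus uninjected side in log2 units (y axis) for each of the 9 genes (x axis) in control and in double morphants, with bars for the mean, whiskers for the 95% interval of the limma fit, circles for replicate 1 and triangles for replicate 2. All circles and triangles lie below 0, but those of nr2e1.S in control morphants are differences between values near the floor, and nr2e1.S is the one gene whose intervals do not overlap between the kinds of morphant.

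Taken by experiment, the difference between the sides was negative in both experiments and both kinds of morphant for all 7 genes whose values stayed above 2.5, which held for 17.7% of the genes with such values. Nr2e1.S and en2.L were lower in both experiments of double morphants, and their signs in control morphants were not read, since they rest on values at the floor. Lhx2.L differed by -1.67 in both experiments, nr2e1.S by -1.98 and -1.85, nkx2-1.L by -2.91 and -2.65, and en2.L by -2.32 and -2.59. These 4 genes repeated closely, but they had been called by a statistic that rises as the replicates of a group lie closer. For nr2e1.S and en2.L the injected sides lay at the floor, so the repeat is one of the uninjected sides. Rax.L differed by -2.15 and -1.02, rax.S by -1.66 and -0.024 and otx2.L by -0.49 and -0.025. For rax and otx2.L the difference was thus the larger in the first experiment of double morphants. In control morphants rax.L differed by -1.45 and -1.52, whereas nkx2-1.L differed by -0.95 and -1.92.

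The sides were next compared across the kinds of morphant. On the injected sides 0 of 9 genes were called, where 2.40% of all genes were called higher and 3.19% lower. The unadjusted p of limma was under 0.05 for otx2.S alone among the 9. Of all 8219 genes tested, 658 were higher and 778 lower at that threshold. Otx2.S was 0.41 higher in double morphants, with an adjusted p of 0.235 in limma. On the uninjected sides nr2e1.S was higher in double morphants by 1.66, with a local fdr of 2.15e-21, and en2.L by 1.61, with a local fdr of 0.00186. With the floor these are at least 3.07-fold and 3.04-fold. These were 2 of 9 genes called higher and none lower, against 1.42% and 1.05% of all genes. Both had passed the filter only through the high group, so nothing is read from this count, and of the other 7 genes 0 were called. The smallest adjusted p of any gene here was 0.999963, and with no filter on level it was 0.643 for nr2e1.S and 0.900 for en2.L. Nkx2-1.L was 0.94 and lhx2.L 0.57 higher there without a call.

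The difference between the effects is the difference on the injected sides minus that on the uninjected sides. For nr2e1.S the effect of -1.73 was made of -0.075 on the injected and 1.66 on the uninjected sides, and for en2.L -1.73 was made of -0.11 and 1.61. For nkx2-1.L the effect of -1.35 was made of -0.41 and 0.94. Without the second injected replicate of control morphants the injected sides of nkx2-1.L differed by -1.01, so that its parts were then about equal. For nr2e1.S and en2.L the effect lay almost wholly on the uninjected sides. The injected sides were at or near the floor for nr2e1.S and en2.L in both kinds of morphant, so a lower level there could not have been measured. In the difference between the effects 1 of 9 genes was called lower, against 1.97% of all genes, and of the 7 genes that passed the filter through other groups 0 were called.

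**Figure D3:**
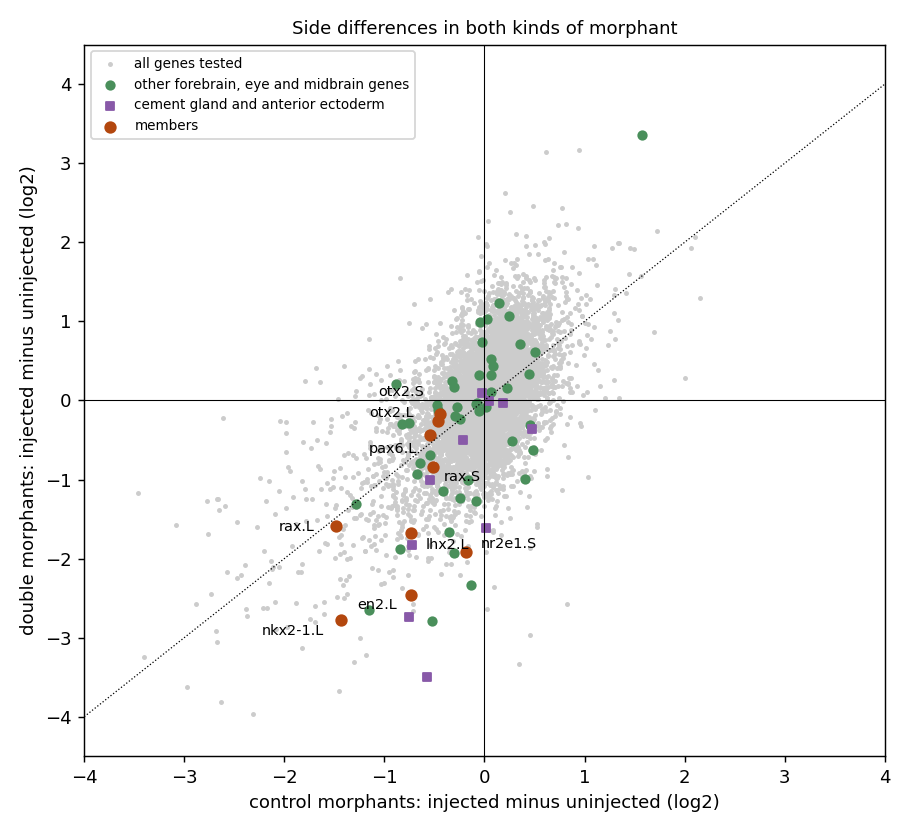
Injected minus uninjected side in double morphants (y axis, log2) against the same in control morphants (x axis, log2), with a grey point for each of the 8219 genes tested, and colours for the 9 genes, the other forebrain, eye and midbrain genes and the cement gland and anterior ectoderm genes; the dotted line marks equal differences and each axis has the uninjected sides of its own kind of morphant as reference. The 9 genes lie below 0 on both axes, with nkx2-1.L, en2.L, nr2e1.S and lhx2.L furthest under the line.

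Other genes of the same regions were counted from lists. Of 29 other tested genes of the forebrain and eye field, 1 was called lower in double morphants and none higher, with a median of -0.30. It was nkx2-4.S, a close relative of nkx2-1. Like nr2e1.S and en2.L, it passed the filter on level only through the uninjected sides of double morphants. Its tests that use that group are therefore given as descriptions. Its values were 4.28 and 4.36 on the uninjected and 3.23 and 2.93 on the injected sides of double morphants, and it fell by 1.24 (SE 0.17), with a local fdr of 0.0110 and an adjusted p of 0.0765. In control morphants it was 3.89 and 4.04 on the uninjected and 3.72 on both injected sides, and its difference between the effects of -0.99 was also called, with a local fdr of 0.00975. In control morphants 2 of the 29 genes were called lower, hesx1.S (-0.83) and fezf2.L (-0.75), which encode forebrain repressors. Six3.L, an eye field homeobox gene, differed by -0.69 (SE 0.25) in double and -0.54 (SE 0.25) in control morphants without a call. Six6.L, its relative in the retina and hypothalamus, differed by -2.79 (SE 1.36) in double morphants, and its replicates were far apart. Others lay higher without a call. Lhx5.S, a LIM-homeodomain gene of the forebrain, was 3.5 and 3.79 on the uninjected and 6.78 and 7.21 on the injected sides of double morphants, a difference of 3.35 (SE 0.79). It was higher on the injected sides of control morphants too, by 1.57 (SE 0.79) and without a call. In double morphants crx.L differed by 1.23 (SE 0.42) and crx.S by 0.99 (SE 0.37). At an unadjusted p under 0.05 the list held 7 lower and 3 higher genes in double morphants. Of all 8219 genes tested, 782 were lower and 963 higher at that threshold. Nkx2-4.S and vsx1.L were among the 7 lower genes. Both passed the filter on level only through the uninjected sides of double morphants, so nothing is read from this count.

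Of 19 other genes of the midbrain and its boundary, 1 was called higher and none lower in double morphants, with a median of 0.10. It was irx2.L, an Iroquois homeobox gene. It had values of 9.84 and 9.68 on the uninjected and 10.87 and 10.79 on the injected sides of double morphants. Irx2.L rose by 1.07 (SE 0.17), with a local fdr of 0.108 and an adjusted p of 0.0846, while it differed by 0.25 in control morphants. The difference between the effects of 0.82 was called with a local fdr of 0.137. The other copy of en2, en2.S, differed by -2.65 (SE 1.07) in double morphants, in the direction of en2.L, and was not called. Its injected sides were 4.44 and 2.74 and its uninjected sides 6.34 and 6.14.

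Of 23 hindbrain and spinal cord genes, 1 was called lower in double morphants, with a median of 0.034. It was aldh1a2.L, which makes retinoic acid and is expressed in mesoderm as well as near the posterior neural plate. It had values of 10.23 and 10.39 on the uninjected and 8.54 and 8.26 on the injected sides of double morphants and fell by 1.91 (SE 0.19), with an adjusted p of 0.0765. In control morphants it differed by 0.017, and the difference between the effects of -1.93 was called.

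Genes of tissues next to the forebrain were counted in the same comparisons, and their calls differed between the kinds of morphant. Of 10 genes of the cement gland and anterior ectoderm, 3 were called lower in double and none in control morphants, with medians of -0.76 and -0.12. Agr2.S and agr2.L, the abundant secretory genes of the cement gland at the front of the head, were lower in double morphants. Agr2.S fell by 3.5 (SE 0.40), agr2.L fell by 2.73 (SE 0.41), and capn8.3.L fell by 1.62 (SE 0.23). In the difference between the effects 4 of the 10 were called lower, these 3 and dlx3.S, which was -0.84. Dlx3.S differed by -0.36 between the sides of double morphants and by 0.48 between those of control morphants, without a call in either. Of 14 genes of the prechordal plate, organizer and notochord, the tissues that induce and pattern the forebrain, 0 were called in double and 4 lower in control morphants. These were gsc.L (-1.98), frzb2.L (-1.64), gsc.S (-1.05) and dkk1.S (-0.76). Shh.L was the one listed notochord marker found among the genes tested. It had values of 9.0 and 9.40 on the uninjected and 8.71 and 2.76 on the injected sides of control morphants. The second injected replicate of control morphants thus stood apart. Markers of some other cell types in the embryo sides were lower too, and those of others were not. Of 8 endoderm markers, 2 had negative differences in double and 0 in control morphants. Of 6 muscle and mesoderm markers, 2 were negative in double and 3 in control morphants. Their summed linear level was 15211 on the uninjected and 11586 on the injected sides of double morphants, and 15654 and 10213 in control morphants. Actc1.L, the most abundant of them, differed by -1.05 in double and -1.23 in control morphants without a call. All 7 neural plate markers were negative in double and 6 of them in control morphants, without a call. For scale, 47.2% of all genes were negative in double and 43.1% in control morphants. All 6 neural crest markers had negative differences in both kinds of morphant, among them sox10.L (-3.67 in double morphants) and foxd3.L (-2.50). None of them was called in double and 1 in control morphants. Sox10.L passed the filter only through the uninjected sides of double morphants, and its injected sides lay at the floor in both kinds. The summed linear level of the 6 neural crest markers was 1451 on the uninjected and 487 on the injected sides of double morphants. In control morphants it was 1199 and 656. The summed level of 2 blood markers, lmo2.S and tal1.S, was 1550 and 579 in double and 1117 and 909 in control morphants. Neither was called in either kind of morphant. Nearly all of the sum came from lmo2.S, at 10.56 on the uninjected and 9.16 on the injected sides of double morphants. Tal1.S was at 5.30 and 2.95 there. The part of these tissues in the values of the 9 genes was not tested.

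The genes most like the 9 in their pattern over the 8 arrays were sought for the 5 whose values spanned more than 2 log2 units, among 928 other genes of like span. The measure was the root mean square difference of values centred on each gene's mean. Glo1.S, a glyoxalase, was closest both to rax.L (0.299) and to lhx2.L (0.257). Mycn.S, a proto-oncogene of progenitor cells, was closest to nkx2-1.L (0.391), followed by the cement gland gene agr2.L (0.405). Muc2l.L (0.193) was closest to nr2e1.S and cadps.L (0.301) to en2.L. Muc2l.L and cadps.L, like nr2e1.S and en2.L, passed the filter on level only through the uninjected sides of double morphants. The filter thus set part of their likeness, and nothing is read from it. Among the 5 members compared, rax.L and lhx2.L formed the closest pair at 0.354. Nr2e1.S and en2.L followed at 0.436, with the same limit from the filter.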

How the data were processed

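The authors made the deposited log2 expression values with GCRMA in R/Bioconductor from Affymetrix arrays. Its version and the probe-level data are not used here. No sequence depth applies, and 2 arrays per group limit the precision. Gene symbols came from the platform annotation (15505 probe sets with 1 gene, 279 with several, 16851 with none). Of the genes tested, 8174 were found in RefSeq.

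Probe sets of 1 gene that varied and reached a group mean of 4 were kept, and of several per gene the most variable, giving 8219 genes. The level filter stands in for the authors' present calls. Group means were fitted with limma 3.58.1 in R 4.3.3 (4 residual degrees of freedom), followed by the authors' local fdr threshold of 0.2. That method (locfdr) was coded for this work, with a maximum likelihood empirical null, a histogram of 120 bins and a spline of 7 degrees of freedom. When tested on simulated data, this threshold let through a large share of calls on unchanged genes, also where no gene had been changed, so a call is no proof of a change. The methods do not name the contrast, so 5 comparisons were made.

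Per the supplementary methods, replicate numbers are independent experiments and the sides of one number share embryos. Replicate differences correlated by 0.77 between the sides of control and 0.65 between those of double morphants. Between the kinds of morphant, which share no embryos, they correlated by 0.80 for the injected and 0.69 for the uninjected sides. Control uninjected with double injected sides gave 0.69, and control injected with double uninjected sides 0.50.

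The 9 genes and the gene lists were chosen with earlier results of these data known. From the lists, genes called in double morphants or in the difference between the effects were named by rule, at most 8 per list, and for likeness of pattern 3 genes per member. Other list genes (hesx1.S, fezf2.L, six3.L, six6.L, vsx1.L, lhx5.S, crx.L, crx.S, en2.S, gsc.L, gsc.S, frzb2.L, dkk1.S and shh.L) were named after their values were seen. Alternatives changed blocks, normalization, probe set, filter, null and threshold, and left out each array.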

Additional observations from a re-analysis of the deposited data

Results flagged for a closer look

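Nr2e1.S was picked out because its difference between the sides was not the same in double and control morphants by the test of that difference. The effect in double minus that in control morphants was -1.73 on the log2 scale (limma, local fdr 9.34e-07, adjusted p 0.574). In double morphants it was lower on the injected side in 2 of 2 experiments, by -1.98 and -1.85. In control morphants both sides lay near the lowest values of the arrays, so no difference could be measured there, and the gene had passed the filter on level only through the uninjected sides of double morphants.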

How the results depend on the processing

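Of the 9 genes, 4 were called in double morphants, 5 in control morphants, 1 in the difference between the effects, 0 on the injected and 2 on the uninjected sides. In double morphants this became 1 with the experiment as a block (replicate block), 2 with paired sides as a block, 0 at an adjusted p under 0.05, 0 with statistics turned into z values and 2 with a mean of at least 5, where nr2e1.S and en2.L were not tested. Leaving out one array gave 1 to 4. Nr2e1.S kept its call without each array of double morphants, en2.L lost it without any, nkx2-1.L without the first injected replicate, and lhx2.L without that one or the second uninjected replicate. In control morphants it became 2 with the replicate block, 3 with paired sides, 0 at an adjusted p under 0.05 (0 with either block), 2 with the theoretical null, 2 with z values, and 2 to 3 without one array. There rax.L kept its call without each array, lhx2.L and otx2.S lost it without any, pax6.L without each but the first injected replicate, and nkx2-1.L without the second uninjected replicate, while otx2.L gained one without the second injected and en2.L without the second uninjected replicate. For the difference between the effects it became 2 with paired sides, 0 at an adjusted p under 0.05 (0 with either block), 0 with z values, 5 with no filter, 0 with a mean of at least 5, and 1 to 2 without one array. In the fit over all annotated probe sets with no filter, otx2.S was called with a positive difference between the effects (0.28, local fdr 0.0550). Nr2e1.S, en2.L and lhx2.L were called there with negative ones. On the injected sides otx2.S was called higher (1 of 9) with the theoretical null and with no filter. On the uninjected sides it became 0 at an adjusted p under 0.05 (0 with the replicate block), 1 with z values, 4 with no filter, 0 with a mean of at least 5, and 1 to 2 without one array. The cause of these changes was not tested.

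Some small differences changed sign. With another probe set rax.L had 0.25 in the difference between the effects and pax6.L 0.11 on the injected sides. Without one array, rax.S ran from -1.11 to 0.092 between the sides of control morphants. In the difference between the effects rax.L ran from -0.57 to 0.37, rax.S from -1.11 to 0.44 and pax6.L from -0.10 to 0.31. On the injected sides rax.L ran from -0.63 to 0.31, rax.S from -0.51 to 0.039, pax6.L from -0.23 to 0.17, nkx2-1.L from -1.01 to 0.19 and nr2e1.S from -0.18 to 0.028. On the uninjected sides rax.L ran from -0.20 to 0.076, rax.S from -0.68 to 0.87 and otx2.L from -0.068 to 0.15. No difference between the sides of double morphants changed sign under any alternative run. Values near the array floor limit nr2e1.S and en2.L.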
